A study of Homo sapiens with 4 samples.

Results

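The RNA levels of 40 genes of mitosis and the spindle checkpoint were described in KM-H2, an established human Hodgkin lymphoma cell line in which the class II transactivator gene CIITA is fused to the transcript BX648577. The genes were a list of cyclins, mitotic kinases, checkpoint, kinetochore, spindle and cytokinesis genes, with the kinesins of the KIF family names left out (CENPE, which is also a kinesin, was kept), and each was read at its brightest probe set that the platform annotation assigns to 1 gene. All 40 had such a probe set, out of 19775 named genes, and all 40 lay above the brightness filter that kept 12922 genes for testing. The samples were 2 arrays of KM-H2 cells transduced with a lentiviral vector whose hairpin targets the BX648577 part of the fusion transcript, called knockdown here, and 2 arrays of KM-H2 cells with a non-silencing control. Cells of both groups carry the fusion. Only 1 hairpin was used, and nothing in the labels says that replicates came from separate cultures, so p-values measure the spread between these arrays, which may be technical.

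Entry into mitosis is driven by cyclin-dependent kinase 1 with cyclins A and B, and is helped by the Polo and Aurora kinases. The spindle checkpoint then holds back the anaphase-promoting complex, a ubiquitin ligase that works with its activator CDC20, until every kinetochore is attached to microtubules. Once it is active, cyclin B and the inhibitor of separase are destroyed, sister chromatids part and the cell divides. Many of these genes are transcribed late in the cell cycle through promoters with CCAAT boxes and a short element called the cell cycle gene homology region, so their RNA is a common measure of dividing cells.

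The promoters are shown because these elements are shared by many genes of the list and were not part of the rule that chose them. Of the 40 genes, 33 matched the RefSeq promoter table (GRCh38.p14) by symbol, at the first start site listed for each. In the 250 bases before the start, the homology region letters TTTGAA or TTTAAA, read on both strands and with overlapping matches counted, stood in 21 of the 33 mitotic promoters (63.6%), against 15.4% of 10401 promoters of genes tested here and 22.1% of all 27305 promoters in the table. The letters CCAAT, on either strand, stood in 25 of the 33 (75.8%), against 35.2% and 33.0%. At least 2 CCAAT matches were present in 48.5% of the mitotic promoters, against 12.6% of the promoters of tested genes. Both kinds of element occurred together in 54.5% of the mitotic promoters, against 5.78%. Among 26 promoters of DNA replication and S phase genes, a TTTGAA or TTTAAA match was present in 3 (11.5%) and a CCAAT match in 15 (57.7%). The 120 bases before the start of 3 genes are printed in the direction of transcription with every match to these letters in capitals. CCNB1 is shown as the cyclin gene with higher knockdown signal, and PLK1 and CENPF as genes whose knockdown arrays both read below the control arrays. The stretches are chr5:69167030-69167149 (+ strand) for CCNB1, chr16:23678769-23678888 (+ strand) for PLK1 and chr1:214603075-214603194 (+ strand) for CENPF.
CCNB1: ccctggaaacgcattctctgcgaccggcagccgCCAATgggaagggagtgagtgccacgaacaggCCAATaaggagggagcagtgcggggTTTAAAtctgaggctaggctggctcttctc
PLK1: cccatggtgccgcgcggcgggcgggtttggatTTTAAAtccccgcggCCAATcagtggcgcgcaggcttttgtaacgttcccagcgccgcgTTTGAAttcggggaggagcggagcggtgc
CENPF: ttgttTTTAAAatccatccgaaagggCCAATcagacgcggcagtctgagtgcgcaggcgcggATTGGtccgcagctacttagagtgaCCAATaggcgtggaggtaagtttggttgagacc
CCNB1 carried a TTTAAA match downstream of 2 CCAAT matches, PLK1 a CCAAT match between a TTTAAA and a TTTGAA match, and CENPF a TTTAAA match upstream of 3 CCAAT matches, 1 of them on the other strand. A match of letters is a description and not a site of binding. The 21 genes with a TTTGAA or TTTAAA match had a median log2 fold change of 0.04 with 11 above 0, and the 12 without one had a median of -0.01 with 6 above 0.

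The fold changes of the mitotic genes were centred near 0, on both sides of it. Their median log2 fold change, knockdown minus control from log2(intensity + 16) values, was 0.03, with quartiles of -0.13 and 0.13. The median over all genes tested was -0.01 with quartiles of -0.14 and 0.11. The mitotic genes were brighter than most, at a median level of 7.30 on that scale against 5.75 for all genes tested. With a filter of 6 on that scale, which 34 mitotic genes passed, the medians were 0.03 for them and 0.02 for all genes. SGO1 was among those 34 only through its high value on control replicate 2. Of the 40 genes 23 lay above 0 and 17 below. The number above 0 was 20 with quantile normalization and between 18 and 26 with 1 array left out. None of the 40 passed limma's common-prior fit, which uses 1 prior variance for all genes, at an adjusted p under 0.05. The adjustment was Benjamini-Hochberg over all 12922 genes, of which 0.0155% passed. CCNB1 and BIRC5 rose in the intensity-trend fit, in which the prior variance follows brightness. That fit called 2.99% of all genes, 1.59% higher and 1.40% lower, and 7.19% of all genes with the filter of 6. At an unadjusted p under 0.05 in the common-prior fit 4 genes were higher (CCNB1, BIRC5, NEK2 and INCENP) and 0 lower, against 6.41% and 7.68% of all genes. Of these, INCENP passed the brightness filter only through its knockdown arrays, so its place in this count carries no weight.

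In the common-prior fit the 95% interval of the fold change lay within 0.5 of 0 on the log2 scale for 30 of the 40 genes, and within 1 of 0 for 39. The exception to the wider limit was SGO1, and the others outside the narrower one were CCNB1, PLK1, INCENP, BIRC5, NEK2, CENPE, CENPF, CDC20 and ANLN. These intervals are for single genes and are not adjusted for their number. In bulk RNA, fewer cells in mitosis and less of these RNAs per cell cannot be told apart.

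Both knockdown arrays read above both control arrays for 13 genes (32.5%, against 22.7% of all genes) and below both for 6 (15.0%, against 24.5%). Together these were 19 of 40 genes (47.5%), near the share among all genes (47.3%). The mitotic genes were brighter than most, and the shares were not computed with the filter of 6 on the log2 scale. With that filter the intensity-trend fit called 246 of all genes higher and 166 lower. The 13 were CCNB1, CDC25C, CKS2, BUB1, INCENP, BIRC5, CDCA8, NEK2, CDCA3, TPX2, NUSAP1, ANLN and RACGAP1, and the 6 were TOP2A, BUB1B, PLK1, CENPF, SGO2 and ECT2. INCENP was tested, and so counted here, only because its knockdown arrays carried it past the brightness filter. Every role except chromosome structure, the kinetochore and cohesion had at least 1 gene among the 13.

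**Figure D1:**
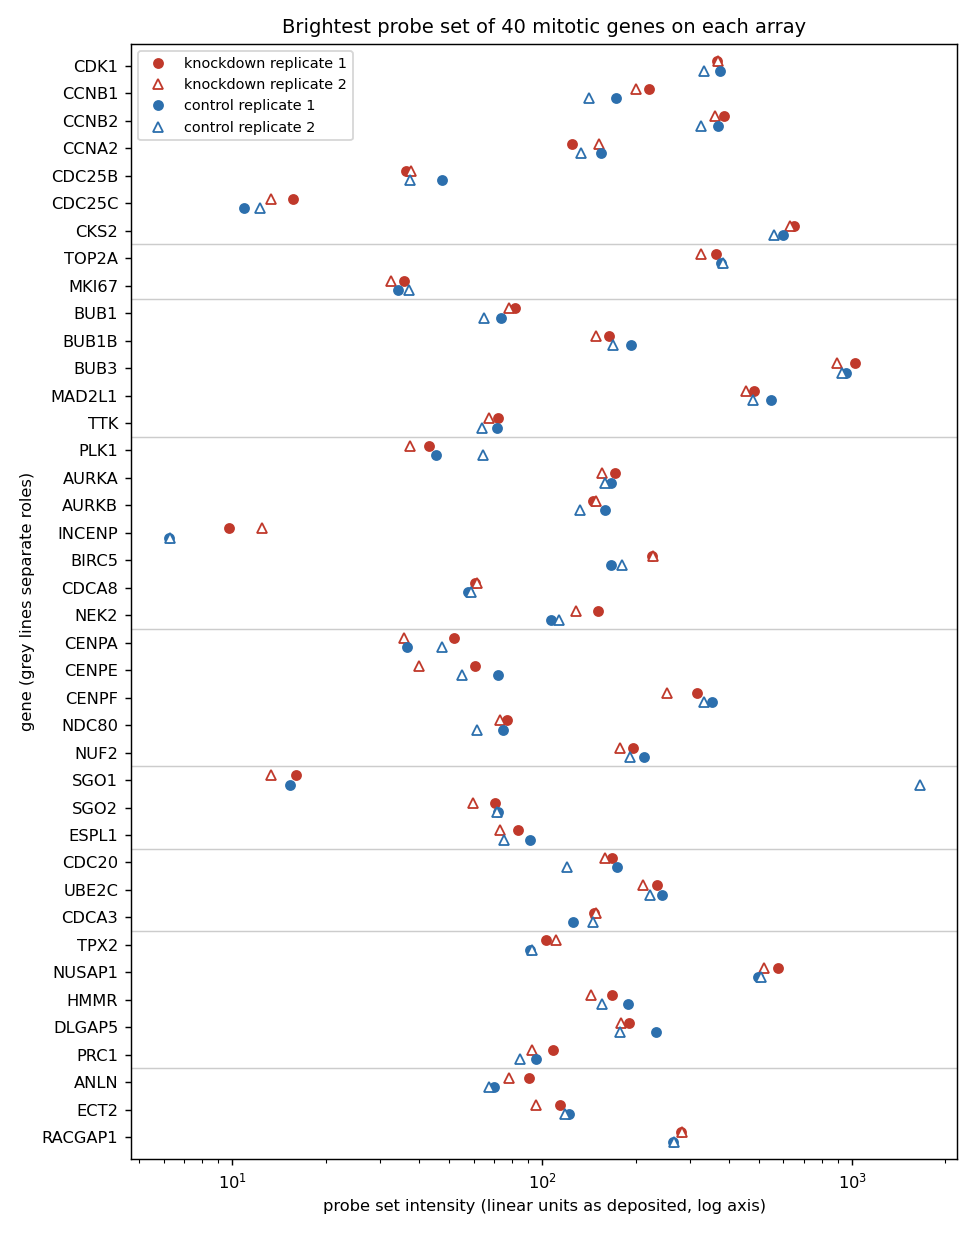
Intensity of the brightest probe set of each of the 40 mitotic genes (rows, grouped by role) on the 2 knockdown arrays (red) and the 2 control arrays (blue), on a log axis. Levels of different probe sets are not comparable with each other. SGO1 on control replicate 2, at 1655, stands far to the right of its other 3 arrays, and for most other genes the 4 arrays lie close together.

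Of the genes that start mitosis, CCNB1 rose in the intensity-trend fit. It encodes cyclin B1, the main partner of CDK1 at mitotic entry, and it read 222 and 201 on the knockdown arrays, against 173 and 142 on the control arrays. Both knockdown arrays were higher, at a mean of 211 ± 14.9 in knockdown and 157 ± 22.4 in control cells (SD, n = 2 each). CCNB1 had a log2 fold change of 0.39, with an SE of 0.13 in the common-prior fit and 0.10 in the intensity-trend fit. Its limma adjusted p was 0.0354 in the intensity-trend fit and 0.278 in the common-prior fit. The other CCNB1 probe set did not show this, with 109.6 and 99.5 in knockdown and 116 and 104 in control cells (-0.07). Without control replicate 2, the array lowest for CCNB1, its log2 fold change was 0.26 and its adjusted p in the intensity-trend fit 0.193. Without knockdown replicate 1 they were 0.33 and 0.152.

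CDK1, the kinase itself, read 367 and 368 in knockdown and 376 and 332 in control cells, and the groups overlapped. Its log2 fold change was 0.05 with a 95% interval of -0.20 to 0.31. Its next 2 probe sets lay on the other side of 0, at -0.11 and -0.09, and the dimmest gave 0.18. The probes of the set at -0.09 may also read related transcripts. CCNB2, the second B-type cyclin, read 386 and 362 in knockdown and 369 and 325 in control cells, a log2 fold change of 0.11 with overlapping groups. CCNA2, cyclin A2, which acts in S phase and early mitosis, read 125 and 153 and, at a second probe set, 151 and 136 in knockdown cells. In control cells it read 154 and 133 and 129 and 132. The signs of those probe sets differed, at -0.05 and 0.12 on the log2 scale. CKS2, a small subunit of CDK complexes, read 648 and 629 in knockdown and 597 and 559 in control cells, higher on both knockdown arrays at 0.14 on the log2 scale (adjusted p = 0.288 in limma's intensity-trend fit). Of the phosphatases that switch CDK1 on, CDC25B gave -0.14 and the dim CDC25C, with means of 14.5 in knockdown and 11.6 in control cells, gave 0.15.

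TOP2A, the topoisomerase that untangles chromosomes, read 364 and 326 in knockdown and 378 and 382 in control cells. Both knockdown arrays were lower there, with a log2 fold change of -0.14, but at the second probe set the groups overlapped and the fold change was 0.04. MKI67, the Ki-67 proliferation marker that coats mitotic chromosomes, read 35.8 and 32.6 in knockdown and 34.1 and 37.1 in control cells at its brightest probe set, with overlapping groups and a log2 fold change of -0.04. Its 3 dimmer probe sets gave -0.36, 0.06 and -0.61. The dimmest of them read 10.5 and 9.29 in knockdown and 25.2 and 21.8 in control cells, so the 4 MKI67 probe sets did not give 1 answer.

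The 5 genes of the spindle checkpoint lay on both sides of 0, and none passed either fit. BUB1, a checkpoint kinase at the kinetochore, read 81.9 and 78.3 in knockdown and 73.6 and 64.9 in control cells, higher on both knockdown arrays with a log2 fold change of 0.17. BUB1B, which encodes BubR1 of the complex that inhibits CDC20, read 164 and 149 in knockdown and 194 and 169 in control cells, lower on both knockdown arrays with a log2 fold change of -0.19. Their adjusted p-values in limma's intensity-trend fit were 0.436 and 0.300. MAD2L1, the MAD2 protein of the same inhibitory complex, read 483 and 453 in knockdown and 547 and 480.4 in control cells, with overlapping groups. It was below 0 at all 3 of its probe sets, at -0.13, -0.14 and -0.20. BUB3, a partner of BUB1 and BubR1, gave 0.02 at its brightest probe set, whose probes may also read related transcripts. The 3 others above the filter gave between -0.15 and 0.11. TTK, the kinase MPS1 that starts checkpoint signalling, gave 0.03 with a 95% interval of -0.22 to 0.28.

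Among the mitotic kinases and the chromosomal passenger complex, which corrects faulty microtubule attachments, BIRC5 stood out. BIRC5 encodes survivin, a subunit of that complex that is also known as an inhibitor of apoptosis, and read 226 and 228 in knockdown and 167 and 181 in control cells. The knockdown arrays agreed closely and were both higher, at 227 ± 1.54 in knockdown and 174 ± 10.6 in control cells (SD, n = 2 each). BIRC5 had a log2 fold change of 0.36, with an SE of 0.10 in the common-prior fit and 0.08 in the intensity-trend fit. Its limma adjusted p was 0.0289 in the intensity-trend fit and 0.259 in the common-prior fit. Of the other BIRC5 probe sets, the brightest read 61.6 and 63.04 in knockdown and 42.97 and 34.3 in control cells (0.52). The next read 41.2 and 41.03 in knockdown and 54.8 and 34.8 in control cells (-0.07), and the dimmest, whose probes may also read related transcripts, gave 0.29. Thus 3 of 4 probe sets had both knockdown arrays higher and 1 had overlapping groups. The call was lost without knockdown replicate 1, knockdown replicate 2 or control replicate 1, where the adjusted p in the intensity-trend fit was 0.0742, 0.156 and 0.0981. The log2 fold changes of those fits lay between 0.30 and 0.36, and without control replicate 2 the call was kept at 0.42 (adjusted p = 0.0492 in limma's intensity-trend fit).

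The other subunits of the complex gave smaller or less certain values. AURKB, its kinase, read 146 and 149 in knockdown and 159.8 and 133 in control cells, a log2 fold change of 0.02 with a 95% interval of -0.26 to 0.30. CDCA8, which encodes borealin, read 60.5 and 61.7 in knockdown and 57.7 and 59.05 in control cells, without overlap but by a log2 fold change of 0.05. INCENP, the scaffold of the complex, was dim, with 9.75 and 12.5 in knockdown and 6.22 and 6.27 in control cells, a log2 fold change of 0.28 (adjusted p = 0.444 in limma's intensity-trend fit). A change from so low a level is understated on this scale. The single INCENP probe set lay just above the filter at an intensity of 8.26. It did so only through the knockdown arrays, since both control arrays read below that intensity.

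NEK2, a kinase that parts the centrosomes, read 151 and 129 in knockdown and 107 and 113 in control cells. Both knockdown arrays were higher, with a log2 fold change of 0.31, but its adjusted p was 0.107 in limma's intensity-trend fit and its dimmer probe set gave -0.03. PLK1, the Polo kinase, had the lowest fold change of the list after SGO1, at -0.32, with 43.04 and 37.3 in knockdown and 45.3 and 64.3 in control cells. Both knockdown arrays were lower, but control replicate 1 lay close to knockdown replicate 1 and the adjusted p was 0.221. AURKA, the kinase of spindle poles, read 171 and 155 in knockdown and 166 and 159.8 in control cells, a log2 fold change of 0.00 with overlapping groups. A second AURKA probe set gave 0.18, with both knockdown arrays higher. The dimmest AURKA probe set gave -0.40, with 7.15 and 3.59 in knockdown and 14.8 and 9.57 in control cells. It lay just above the filter, and only through the control arrays, since both knockdown arrays read below its intensity of 8.26. The lower knockdown values there therefore carry no weight.

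**Figure D2:**
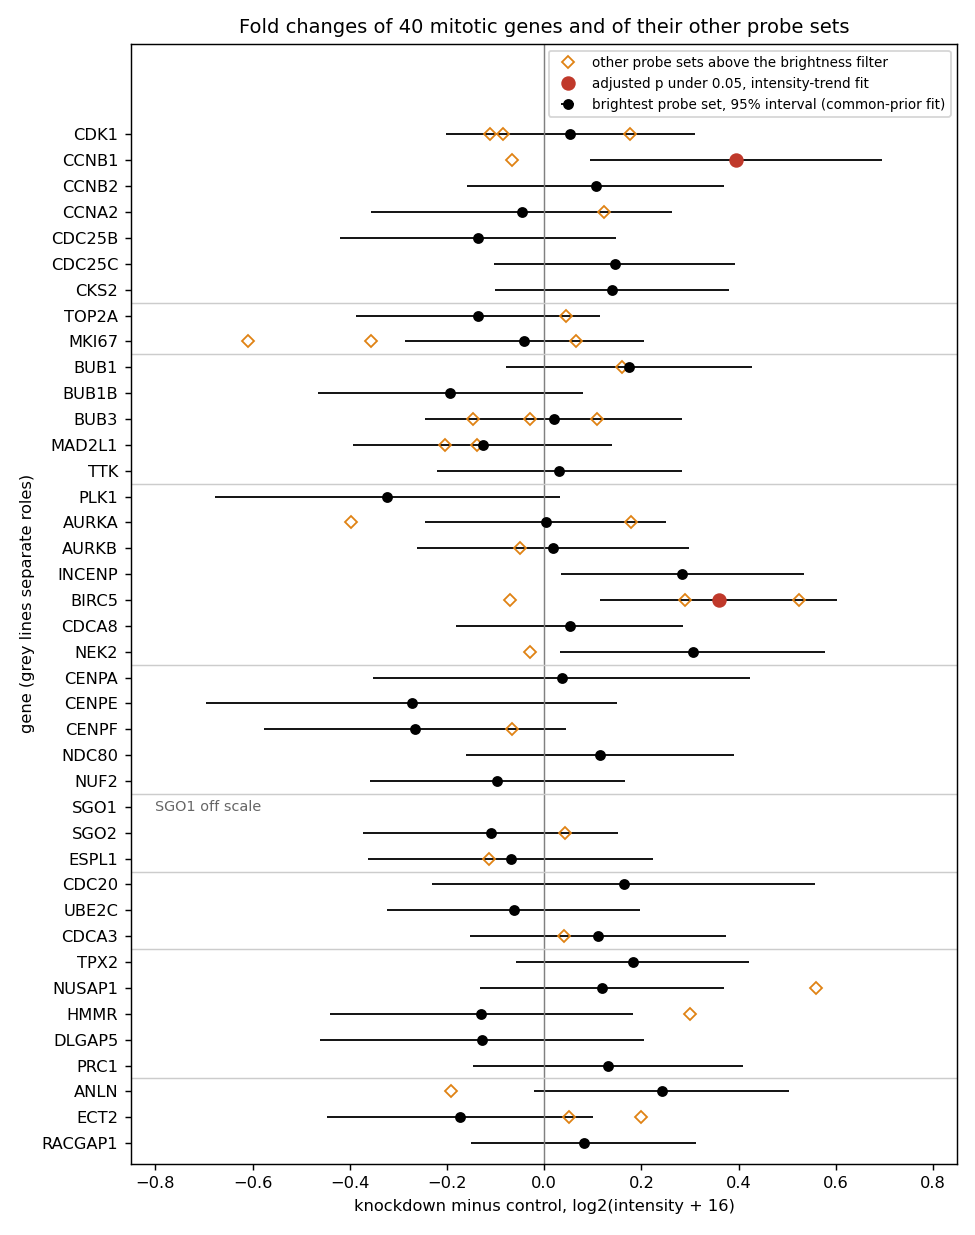
Log2 fold change, knockdown minus control from log2(intensity + 16) values, for the mitotic genes (rows, grouped by role). Circles are the brightest probe sets with their 95% interval from the common-prior fit, red where the intensity-trend fit passed, and diamonds are the other probe sets above the brightness filter. CCNB1 and BIRC5 are red, 36 intervals of 40 include 0 (that of SGO1, not drawn, among them), and the diamonds often lie on the other side of 0 from the circle. SGO1 lies outside the axis, at -2.90.

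The kinetochore, the protein platform that ties chromosomes to microtubules, had 3 of 5 genes below 0 and none past either fit. CENPF, a large protein of the outer kinetochore, read 316 and 252 in knockdown and 353 and 332 in control cells, lower on both knockdown arrays at -0.27 on the log2 scale (adjusted p = 0.129 in limma's intensity-trend fit). Its next probe set gave -0.07, with overlapping groups. Without knockdown replicate 2 the value of CENPF was -0.11, and without knockdown replicate 1 it was -0.42. CENPE, a motor that carries chromosomes to the spindle equator, read 60.8 and 40.03 in knockdown and 72.2 and 55.2 in control cells, a log2 fold change of -0.27. In both groups replicate 1 exceeded replicate 2 for CENPE, by more than the groups differed. NDC80 and NUF2, which form a heterodimer that binds microtubules, gave 0.11 and -0.10 with overlapping groups. CENPA, the histone variant that marks centromeres, read 51.97 and 35.6 in knockdown and 36.5 and 47.6 in control cells, a log2 fold change of 0.04. The probes of that CENPA probe set may also read related transcripts, and a brighter probe set that the annotation shares between CENPA and another gene was not used.

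SGO1 had the largest difference of any gene tested, and it came from 1 array. SGO1 encodes shugoshin 1, which guards centromere cohesion until anaphase. It read 16.01 and 13.3 in knockdown cells, against 15.4 on control replicate 1 and 1655 on control replicate 2. Control replicate 1 lay within the range of the knockdown arrays, and control replicate 2 lay 5.71 above the next array on the log2 scale. Among all 54613 probe sets this was the single one with an array at least 3 above the other 3. The log2 fold change was -2.90, with an SE of 1.56 in limma's common-prior fit (adjusted p = 0.447) and 0.97 in its intensity-trend fit (adjusted p = 0.120). Without control replicate 2 it was -0.03. Without control replicate 1, when control replicate 2 alone stands for the controls, it was -5.77. With 1 knockdown array left out and both control arrays kept, it was -2.96 or -2.84. The intensity-trend fit then called SGO1 although the control arrays differed by 5.73 on the log2 scale, and the common-prior fit did not. Such a call rests on the prior variance and not on the spread of the gene's own arrays. The second SGO1 probe set read 9.83 and 5.13 in knockdown and 6.87 and 13.8 in control cells, where control replicate 2 was also the highest array but without a gap of that kind. The cause of the single high value was not tested.

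SGO2, the related shugoshin, read 70.5 and 59.9 in knockdown and 71.8 and 71.2 in control cells, lower on both knockdown arrays with a log2 fold change of -0.11. The other SGO2 probe set, about as bright, read 69.2 and 67.8 in knockdown and 76.5 and 56.6 in control cells, with overlapping groups and a log2 fold change of 0.04. ESPL1, separase, which cuts cohesin at anaphase, read 83.4 and 73.2 in knockdown and 91.04 and 75.1 in control cells. Its groups overlapped and its log2 fold change was -0.07, with -0.11 at the other probe set. Neither showed the pattern of SGO1 across the arrays.

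Of the partners of the anaphase-promoting complex, CDC20, its activator, read 168 and 159.8 in knockdown and 174 and 119.8 in control cells. The low control replicate 2 gave it a log2 fold change of 0.16, while the other 3 arrays lay close together. UBE2C, the ubiquitin-conjugating enzyme of the complex, read 234 and 211 in knockdown and 244 and 223 in control cells, a log2 fold change of -0.06. CDCA3, a gene linked to entry into mitosis, gave 0.11, with both knockdown arrays just above control replicate 2. None of these 3 passed either fit.

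The spindle assembly genes leaned both ways. TPX2, which activates AURKA on the spindle, read 103 and 111 in knockdown and 91.3 and 92.9 in control cells, higher on both knockdown arrays at 0.18 on the log2 scale (adjusted p = 0.361 in limma's intensity-trend fit). NUSAP1, a spindle-associated protein gene, read 577 and 520.2 in knockdown and 497 and 509.6 in control cells, a log2 fold change of 0.12. Its dimmer probe set read 159 and 183 in knockdown and 119.9 and 102 in control cells, at 0.56 a wider gap in the same direction. HMMR, a receptor of hyaluronan that also sits at spindle poles, gave -0.13 at its brightest probe set and 0.30 at the dimmer one, where 55.3 and 48.9 in knockdown stood against 40.9 and 37.6 in control cells. DLGAP5, which bundles spindle microtubules, gave -0.13, and PRC1, which crosslinks the midzone of the spindle, gave 0.13, both with overlapping groups.

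In cytokinesis, ANLN, anillin of the contractile ring, read 90.6 and 77.8 in knockdown and 69.96 and 67.3 in control cells. It was higher on both knockdown arrays at 0.24 on the log2 scale (adjusted p = 0.255 in limma's intensity-trend fit), while its dim probe set gave -0.19. ECT2, the exchange factor that activates RhoA at the division plane, read 114 and 95.6 in knockdown and 122 and 119 in control cells, lower on both knockdown arrays with a log2 fold change of -0.17. Its dimmer probe sets lay on the other side of 0, at 0.20 and 0.05, and the probes of the set at 0.20 may also read related transcripts. RACGAP1, a centralspindlin subunit that recruits ECT2, read 281 and 283 in knockdown and 265 and 266 in control cells, so close within each group that a log2 fold change of 0.08 left no overlap. Its 95% interval was -0.15 to 0.31.

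Probe sets of 1 gene often differed in sign. The 40 genes had 83 probe sets assigned to 1 gene, of which 72 lay above the filter, 38 with a fold change above 0 and 34 below. Of the 21 genes with at least 2 probe sets above the filter, 14 had probe sets on both sides of 0, 3 had all above and 4 all below. Some of the 14 rest on dim probe sets. For AURKA and AURKB the probe set below 0 lay just above the filter, for AURKA only through the control arrays. When the probe sets of a gene were averaged, no mitotic gene passed either fit, and CCNB1 and BIRC5 stood at 0.16 and 0.28.

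For the mitotic genes, the median signed difference between single arrays of 1 group exceeded that between the group means. Relative to its own mean over the 4 arrays, a mitotic gene was higher on knockdown replicate 1 for 32 of 40 genes, on control replicate 1 for 23, on knockdown replicate 2 for 18 and on control replicate 2 for 10. The median deviations were 0.04 and -0.03 on knockdown replicates 1 and 2 and 0.03 and -0.05 on control replicates 1 and 2. Over all genes tested the 4 medians lay between -0.02 and 0.01. Knockdown replicate 1 exceeded knockdown replicate 2 for 30 of the 40 genes, by a median of 0.12, and control replicate 1 exceeded control replicate 2 for 26, by a median of 0.09. The median difference between the groups was 0.03. Taken without sign, the median difference was 0.13 between the groups, 0.13 between the knockdown arrays and 0.14 between the control arrays. Signed or not, the group difference is between means of 2 arrays, and the others are between single arrays, which vary more under noise alone. The sizes are therefore not directly comparable, and equal sizes do not mean that the groups differed only as replicates do. The median became -0.03 without control replicate 2 and 0.06 without knockdown replicate 2, the lowest and highest values with 1 array left out. Replicate numbers name arrays here and do not pair them.

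**Figure D3:**
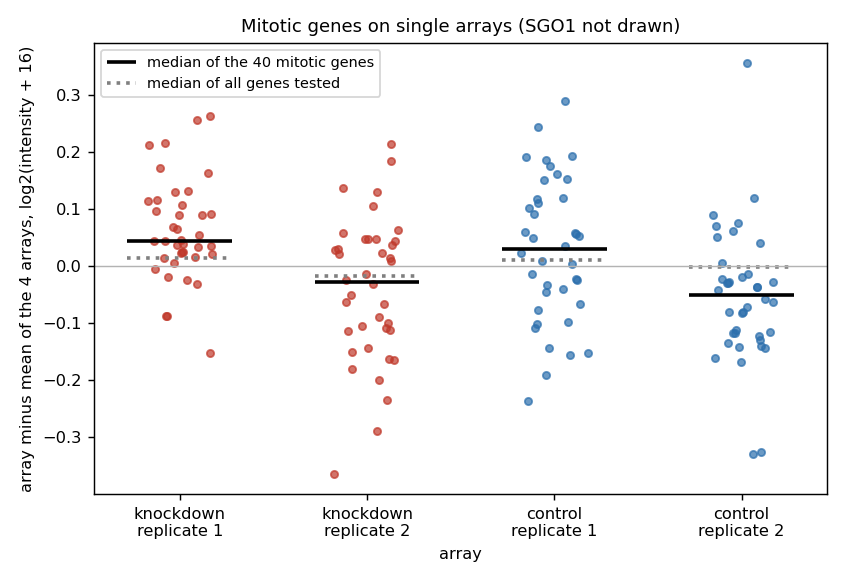
Each array's log2(intensity + 16) minus the mean of the 4 arrays, for the mitotic genes (points, SGO1 not drawn), with the median of the 40 genes as a solid line and that of all genes tested as a dotted line. The solid lines lie at 0.04 and -0.03 for the knockdown arrays and at 0.03 and -0.05 for the control arrays, so the first replicate of each group sits above the second.

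The other genes of mitosis were examined in 6 lists, which held 130 genes, 126 of them tested. Of these, 57 lay above 0 and 69 below, with a median of -0.02. None passed the common-prior fit, and 5 passed the intensity-trend fit, all lower (3.97%, against 2.99% of all genes in either direction). With the filter of 6 on the log2 scale that fit called 7.19% of all genes and again 5 of these. At an unadjusted p under 0.05 in the common-prior fit 6 were higher and 7 lower, out of 126, against 6.41% and 7.68% of all genes. With 1 array left out, between 0 and 2 of these lists' genes passed the intensity-trend fit, with 0 without control replicate 1. The calls of MASTL and SMC1A were lost whichever array was left out. NCAPG passed without control replicate 2 and without knockdown replicate 1, KNTC1 without knockdown replicate 1, and PPP1CB without knockdown replicate 2. None of the 5 passed with no filter or with averaged probe sets.

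MASTL, the Greatwall kinase that keeps a phosphatase opposing CDK1 in check, fell to 55.6 and 58.3 in knockdown cells, against 82.02 and 85.2 in control cells. Its log2 fold change was -0.45 (adjusted p = 0.0295 in limma's intensity-trend fit and 0.252 in the common-prior fit), and MASTL has no second probe set here. PPP1CB, a catalytic subunit of protein phosphatase 1, gave -0.24 (adjusted p = 0.0444 in limma's intensity-trend fit) at its brightest probe set, but 0.23, -0.29 and 0.38 at the others. KNTC1, a checkpoint protein of the outer kinetochore, fell to 71.6 and 58.8 in knockdown cells, against 95.3 and 90.97 in control cells, a log2 fold change of -0.43 (adjusted p = 0.0405 in the same fit).

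The condensin and cohesin genes, whose products shape chromosomes and hold sisters together, lay below 0 in 13 of 19 cases, with a median of -0.05. NCAPG, a condensin subunit, fell to 143 and 131 in knockdown cells, against 199 and 165 in control cells, at -0.37 (adjusted p = 0.0461 in limma's intensity-trend fit). The second NCAPG probe set went the other way, with means of 94.2 in knockdown and 84.97 in control cells (0.13). SMC1A, a cohesin subunit, fell to 396 and 382, against 498 and 456 in control cells, at -0.28 (adjusted p = 0.0407 in limma's intensity-trend fit), and its dimmer probe sets above the filter gave 0.25 and 0.27.

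The 3 lists without a call had medians close to 0. The subunits and partners of the anaphase-promoting complex had 7 of 16 genes above 0 and a median of -0.01, with ANAPC15 at 0.27 and ANAPC2 at 0.18. Spindle pole and centrosome genes had 12 of 27 above 0 and a median of -0.03. TUBGCP6, of the gamma-tubulin ring, gave -0.33 at its brightest probe set and -0.09 at its other. NEDD1, which recruits that ring, gave -0.23 at its brightest probe set but 0.18 and 0.49 at its others. Transcription factors of mitotic genes, among them the CCAAT-binding NF-Y subunits, had 9 of 16 above 0 and a median of 0.05. NFYC gave 0.29, and 0.11, 0.34 and 0.23 at its other probe sets above the filter, and the probes of the sets at 0.11 and 0.34 may also read related transcripts. TFDP2, a partner of E2F factors, gave -0.25 at its brightest probe set but -0.49 and 0.27 at the others above the filter. The other kinetochore and checkpoint proteins had 15 of 33 above 0 and a median of -0.02, and the kinases and phosphatases of entry and exit 8 of 15 and a median of 0.01.

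Genes of DNA replication and S phase lay above 0 in 9 of 29 cases, at a median of -0.09, beside 0.03 and 23 of 40 for the mitotic genes, and the difference between the lists was not tested. RFC4, a clamp loader subunit, passed the intensity-trend fit at -0.34, with 310.0 and 269 in knockdown and 384 and 354 in control cells. It was the 1 gene of 29 that did so, against 2.99% of all genes, and with single arrays left out it passed only without knockdown replicate 1. It did not pass with no filter or with averaged probe sets.

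**Figure D4:**
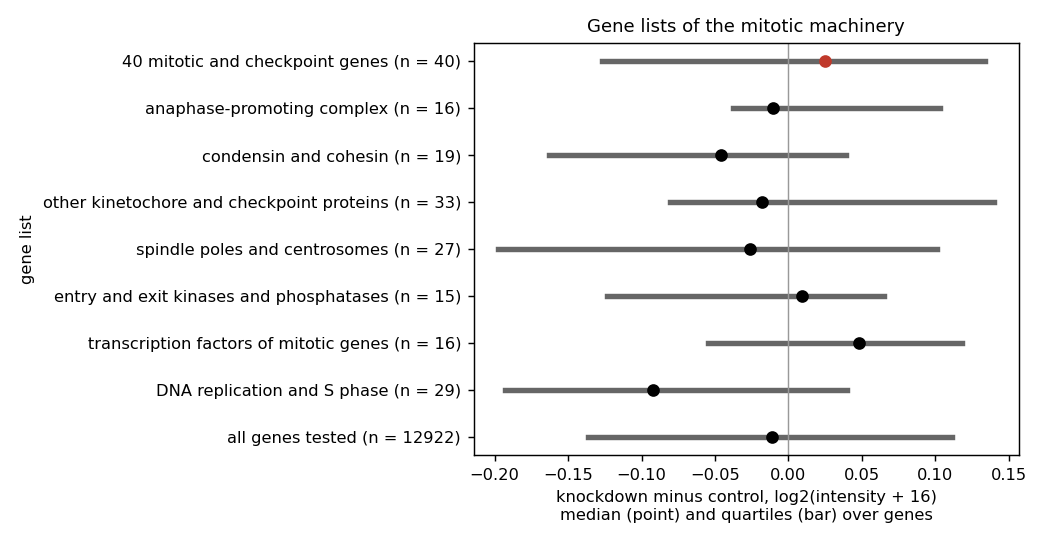
Median (point) and quartiles (bar) of the log2 fold change, knockdown minus control from log2(intensity + 16) values, over the tested genes of each list, with their number. The 40 mitotic genes (red) have a median of 0.03 and DNA replication and S phase genes one of -0.09, and the bars of all lists overlap that of all genes tested.

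The arrays had mean intensities between 53.3 and 54.6, and the share of probe sets brighter than 100 was 9.17% to 9.70%. Median intensities differed by group, at 8.37 and 8.12 on the knockdown arrays and 9.17 and 9.28 on the control arrays. The single probe set of PIERCE2, the gene that general knowledge links to the hairpin's name FLJ27352, read 621 and 590.3 in knockdown and 879.8 and 947 in control cells, 66.3% of the control mean, and passed the intensity-trend fit but not the common-prior fit. Of 8 genes known from Hodgkin cells 6 read above 50 on every array, among them TNFRSF8 (CD30), and the summed level of the 8 was 1477 to 1505 on the knockdown arrays and 1483 to 1493 on the control arrays. Of those 8, CD70 (means of 303 in knockdown and 239 in control cells) and FUT4 (103.7 in knockdown and 75.3 in control cells) were higher and FSCN1 (504 in knockdown and 631 in control cells) lower in limma's intensity-trend fit, at adjusted p-values of 0.0320, 0.0406 and 0.0162. Of the lists for other cell types, 4 epithelial genes summed to 30.6 to 36.5 on the knockdown arrays and 25.3 to 38.6 on the control arrays, and 4 fibroblast genes to 96.1 to 97.2 on the knockdown arrays and 128 to 139 on the control arrays. The 4 monocyte genes summed to 113 to 119 on the knockdown arrays and 115 to 116 on the control arrays. The 4 B and plasma cell genes summed to 56.2 to 57.9 on the knockdown arrays and 59.5 to 62.2 on the control arrays. The 4 T cell genes summed to 235 to 274 on the knockdown arrays and 191 to 202 on the control arrays, nearly all of it CD3D. CD3D was higher and the fibroblast gene COL1A2 lower in the intensity-trend fit. The part of these markers in the values of mitotic genes was not tested.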

How the data were processed

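RNA of 2 knockdown and 2 control samples of KM-H2 cells was measured on single-colour arrays, with biotinylated cRNA made by the 1-cycle Affymetrix method per the labels' protocols. The deposited values are linear probe set intensity values, made by a summary and scaling not given in the sources used here. Array means agree while quartiles differ. Most of the lowest values stand at exactly 1. The precision is limited by the number of arrays, 2 per group.

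Of 54613 probe sets 41091 have 1 gene in the platform annotation, 1801 several and 11721 none. The scale was log2(intensity + 16), on which changes of dim probe sets come out too small. Each gene was read at its brightest probe set, and genes below the median probe set (4.60 on the log2 scale) were left out. The fits of knockdown against control used limma 3.58.1 (R 4.3.3), with a common or an intensity-trend prior variance and Benjamini-Hochberg adjustment over 12922 genes. The fits were tested on simulated data, with variances drawn from the intensity-trend prior and changes added only to genes brighter than the median. Those changes were larger than that of any mitotic gene except SGO1, so the simulation does not cover changes of the size reported here. Named genes are the 40 members and, of each other list, genes past either fit or else the 2 of largest moderated t. Members and lists were chosen with earlier results of these data known. Alternatives were other priors, filters, normalizations, pseudocounts, probe set rules and thresholds, a replicate block, and leaving out each array.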

Additional observations from a re-analysis of the deposited data

How the results depend on the processing

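Fold changes of 25 of the 40 mitotic genes kept their sign under every alternative of the common-prior fit in which they were tested, and 15 genes without a call changed sign in at least 1. The number of mitotic genes called by the common-prior fit was 0, and became 2 with a pseudocount of 64 and with the intensity-trend prior (CCNB1 and BIRC5 in both cases). With single arrays left out it ranged from 0 to 1, the 1 being SGO1 without control replicate 1. The intensity-trend fit called 2 mitotic genes, 0 with no filter and 0 with averaged probe sets, and with single arrays left out from 1 to 2, of which SGO1 was 1 in each case except without control replicate 2, where only BIRC5 passed. The median of the mitotic genes moved by less than the spread between replicate arrays in every alternative, from -0.03 to 0.06.

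The number of all genes called by the common-prior fit was 2. It was 97 with a stricter filter of 6 on the log2 scale, 0 and 406 with pseudocounts of 1 and 64, 1 with the mean of the probe sets, 387 with the intensity-trend prior, and 1 to 6 with single arrays left out. For the intensity-trend fit it was 83 with no filter, 23 with the mean of the probe sets, 716 at an adjusted p under 0.10, and 142 to 377 with single arrays left out. Combinations of the intensity-trend fit with another filter, normalization, pseudocount, probe set rule or threshold were chosen after seeing the data, as was leaving SGO1 out of the median.

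Replicate numbers do not pair the arrays as far as the labels say. Across the 12922 genes tested, replicate 1 minus replicate 2 in knockdown cells correlated at -0.01 with the same difference in control cells. Genes are not independent replicates, and the correlation was not computed for the mitotic genes alone. Of those, replicate 1 exceeded replicate 2 for 30 of 40 in knockdown and for 26 in control cells. With the replicate block the common-prior fit called 0 mitotic genes and 2 genes in all, and the intensity-trend fit 5 and 1010. The 5 were BIRC5, CCNB1, CENPF, NEK2 and SGO1. SGO1 passed there although its control arrays differed by 5.73 on the log2 scale. Calls of the intensity-trend fit with the block or with a knockdown array left out therefore rest mainly on the prior variance. With any 1 array left out, 1 group also has no spread to measure.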
